A study of Mus musculus with 30 samples.

Results

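A tandem cassette event is a stretch of a gene in which neighbouring exons are included together or skipped together. Its inclusion level is meant as the share of the transcripts that carry all of its exons rather than none of them. Some events that differ only in an exon absent from the gene annotation had the same levels, as in Clstn1. For such events the level may not measure that exon. The events described here are all those of this type in 4 deposited splicing tables of mouse neurons with and without the RNA-binding protein NOVA2, matched between tables by event name and isoform names. There were 1260 distinct tandem events among 4923 distinct listed splicing events, and they fell in 428 genes. Of the events listed for Emx1-Cre neurons 710 of 2682 were tandem, for Gad2-Cre neurons 426 of 1970, for the Purkinje layer 185 of 603 and for the controls 343 of 1236. Overlapping events of a gene share exons and reads, so genes rather than events are counted below, each by its event with the largest difference, unless events are named.

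The 18 samples behind the tables are brain RNA of C57BL/6J mice from 6 groups of 3, with ribosomal RNA removed. The cortical comparisons come from cells sorted at embryonic day 18.5. One sets wild-type cells of Emx1-Cre mice, a Cre line of the excitatory cortical lineage, against Nova2-cKO (conditional knockout) cells of the same line. The other does the same with Gad2-Cre, a Cre line of inhibitory neurons. The Purkinje comparison uses cerebellar Purkinje cell layer cut out at postnatal day 28, from mice with Pcp2-Cre, wild-type and Nova2-cKO, so cells other than Purkinje cells can be in it. The table of controls sets the wild-type Emx1-Cre cells against the wild-type Gad2-Cre cells. Another 12 samples, in 4 groups, were not used here. Each table gives 1 pooled inclusion level per group and lists only events that passed the authors' thresholds, so a level has no replicate error and no test across samples was run. No gene expression table was used, so the labelled cell types were not checked against marker genes, and the depth of each sample is unknown.

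NOVA2 is a neuronal RNA-binding protein that binds clusters of the short motif YCAY (Y is C or T in DNA letters) through its KH domains. Where it binds near an alternative exon sets the outcome: clusters in or upstream of an exon are known for skipping, and clusters downstream of it for inclusion. Its known targets are rich in genes of the synapse, of cell adhesion and of the cytoskeleton. Exons in tandem can be read as 1 block, as a choice between neighbours, or as 1 alternative exon with a chance partner, and the tables allow these to be set side by side.

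The exons of 6 pairs that follow each other in an annotated coding transcript, called adjacent pairs, are printed here because their levels carry the cortical results below. Each is given 5′ to 3′ on the transcript strand in build mm10, read from annotated transcripts, with capitals for every match to the motif YCAY, overlaps included. The motif stands for the words CCAC and also CCAT with a first C, and for TCAC and also TCAT with a first T, searched on that strand.
Clasp2 upstream exon, chr9:113862436-113862462, plus strand: gtTCATCATCACctgacaaaaatgaag
Clasp2 downstream exon, chr9:113865086-113865112, plus strand: gaTCACaatctgctaataCCATtggtg
Agrn upstream exon, chr4:156168546-156168569, minus strand: cgagctgaccaatgagatcccagc
Agrn downstream exon, chr4:156167777-156167809, minus strand: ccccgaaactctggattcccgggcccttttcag
Epb4.1 upstream exon, chr4:131964131-131964187, minus strand: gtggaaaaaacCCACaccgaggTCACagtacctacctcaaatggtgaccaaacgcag
Epb4.1 downstream exon, chr4:131963929-131963970, minus strand: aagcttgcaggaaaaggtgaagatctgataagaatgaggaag
Ank2 upstream exon, chr3:126928665-126928847, minus strand: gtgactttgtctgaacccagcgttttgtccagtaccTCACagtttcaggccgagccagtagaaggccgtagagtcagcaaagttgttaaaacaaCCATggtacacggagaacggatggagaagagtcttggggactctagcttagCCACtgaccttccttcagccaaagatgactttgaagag
Ank2 downstream exon, chr3:126926803-126926894, minus strand: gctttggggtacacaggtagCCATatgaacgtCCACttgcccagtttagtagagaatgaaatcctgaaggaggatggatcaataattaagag
Sorbs2 upstream exon, chr8:45782802-45782960, plus strand: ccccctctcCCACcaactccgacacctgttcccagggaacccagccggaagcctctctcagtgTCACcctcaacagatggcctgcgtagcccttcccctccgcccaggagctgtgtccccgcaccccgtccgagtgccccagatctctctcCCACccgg
Sorbs2 downstream exon, chr8:45783543-45783626, plus strand: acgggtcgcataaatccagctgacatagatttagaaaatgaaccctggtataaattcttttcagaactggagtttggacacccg
Agfg1 upstream exon, chr1:82880008-82880127, plus strand: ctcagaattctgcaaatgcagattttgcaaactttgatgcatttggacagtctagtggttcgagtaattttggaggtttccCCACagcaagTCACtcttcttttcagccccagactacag
Agfg1 downstream exon, chr1:82880747-82880818, plus strand: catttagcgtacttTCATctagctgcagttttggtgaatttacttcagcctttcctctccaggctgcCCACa
The upstream 27-nt exon of Clasp2 held 3 matches, a number reached by 0.904% of the annotated internal exons of protein-coding transcripts that are 27 nt long, and the downstream one held 2, reached by 7.23%. At least 1 match was present in 31.6% of all such 27-nt exons. Neither exon of Agrn held a match, where 27% of 24-nt and 32.4% of 33-nt exons have one. For the 183-nt and 92-nt exons of Ank2, with 3 and 2 matches, 58.5% and 43.1% of exons of the same length had at least as many. A match is a description of the letters and not a binding site.

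Clasp2, which encodes a protein that holds microtubule plus ends, had a deeply covered pair that fell. Its 2 exons of 27 nt each lie 2623 nt apart on chromosome 9. The pair's level was 0.598 in Emx1-Cre control and 0.0752 in cKO neurons (coverage 1037), and 0.638 and 0.121 in Gad2-Cre neurons (coverage 812), both from the authors' deposited table. Each exon was also listed as a single cassette and fell as well: in Emx1-Cre neurons the upstream exon went from 0.443 to 0.0678 and the downstream exon from 0.438 to 0.0334. Both exons and the pair thus had low levels in cKO neurons of both lines.

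Agrn encodes agrin, the proteoglycan that clusters acetylcholine receptors at the nerve-muscle synapse, and its 24-nt and 33-nt exons are those that give neuronal agrin that activity. They are separated by 736 nt. The level with both exons was 0.433 in Emx1-Cre control and 0.10 in cKO neurons, and 0.534 and 0.171 in Gad2-Cre neurons. In Emx1-Cre neurons the 24-nt exon by itself fell from 0.755 to 0.296 and the 33-nt exon from 0.388 to 0.150. The 24-nt exon was thus the more often included of the pair in either group.

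Epb4.1 encodes a membrane skeleton protein that ties spectrin and actin to the membrane. Its 57-nt and 42-nt exons, 160 nt apart, had a level of 0.966 in Emx1-Cre control and 0.0617 in cKO neurons, the largest difference among adjacent pairs in that table, though at a coverage of 22.3. With the next exon of 63 nt the block of 3 had levels of 0.471 and 0.049 in Emx1-Cre neurons and of 0.434 and 0.151 in Gad2-Cre neurons. The pair of 57 nt and 42 nt was not listed in the Gad2-Cre table.

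Ank2, which encodes ankyrin-B, an anchor of membrane proteins on the spectrin skeleton, had the largest increase of the adjacent pairs in Emx1-Cre neurons. Its 183-nt and 92-nt exons went from 0.105 in control to 0.926 in cKO Emx1-Cre neurons and from 0.179 to 0.686 in Gad2-Cre neurons. By itself the 183-nt exon rose from 0.342 to 0.977 in Emx1-Cre neurons. Sorbs2, an adaptor with SH3 domains at actin structures, rose at its 159-nt and 84-nt exons from 0.0971 to 0.819 in Emx1-Cre and from 0.0272 to 0.811 in Gad2-Cre neurons, at coverages of only 25.1 and 25.9. Agfg1, an endocytic adaptor with phenylalanine-glycine repeats, rose at its 120-nt and 72-nt exons from 0.0897 to 0.630 and from 0.0551 to 0.428. In these 3 pairs the highest control level was 0.179 and the lowest cKO level 0.428 over both lines.

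Across genes, both directions were common in Emx1-Cre neurons and decreases prevailed in Gad2-Cre neurons. Of 240 genes with a tandem event in the Emx1-Cre table, 131 were lower in cKO, which is 54.6% (95% exact binomial interval 48.1% to 61.0%, counting error only). Single cassette exons of the same table gave 51.4%. Of 169 genes in the Gad2-Cre table, 113 or 66.9% were lower in cKO (59.2% to 73.9%), where single cassettes gave 61.8%. Both shares are near those of single cassettes, so nothing particular to tandem exons is read from them. Genes that fell had a median level of 0.674 in control and 0.323 in cKO Emx1-Cre neurons, and genes that rose had 0.277 and 0.572. In Gad2-Cre neurons these medians were 0.664 and 0.291 for genes that fell, and 0.244 and 0.543 for genes that rose. A difference of at least 0.5 was seen in 27 genes in Emx1-Cre and in 21 genes in Gad2-Cre neurons. Events of the same gene moved in both directions in 7 genes of the first and 4 of the second.

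**Figure D1:**
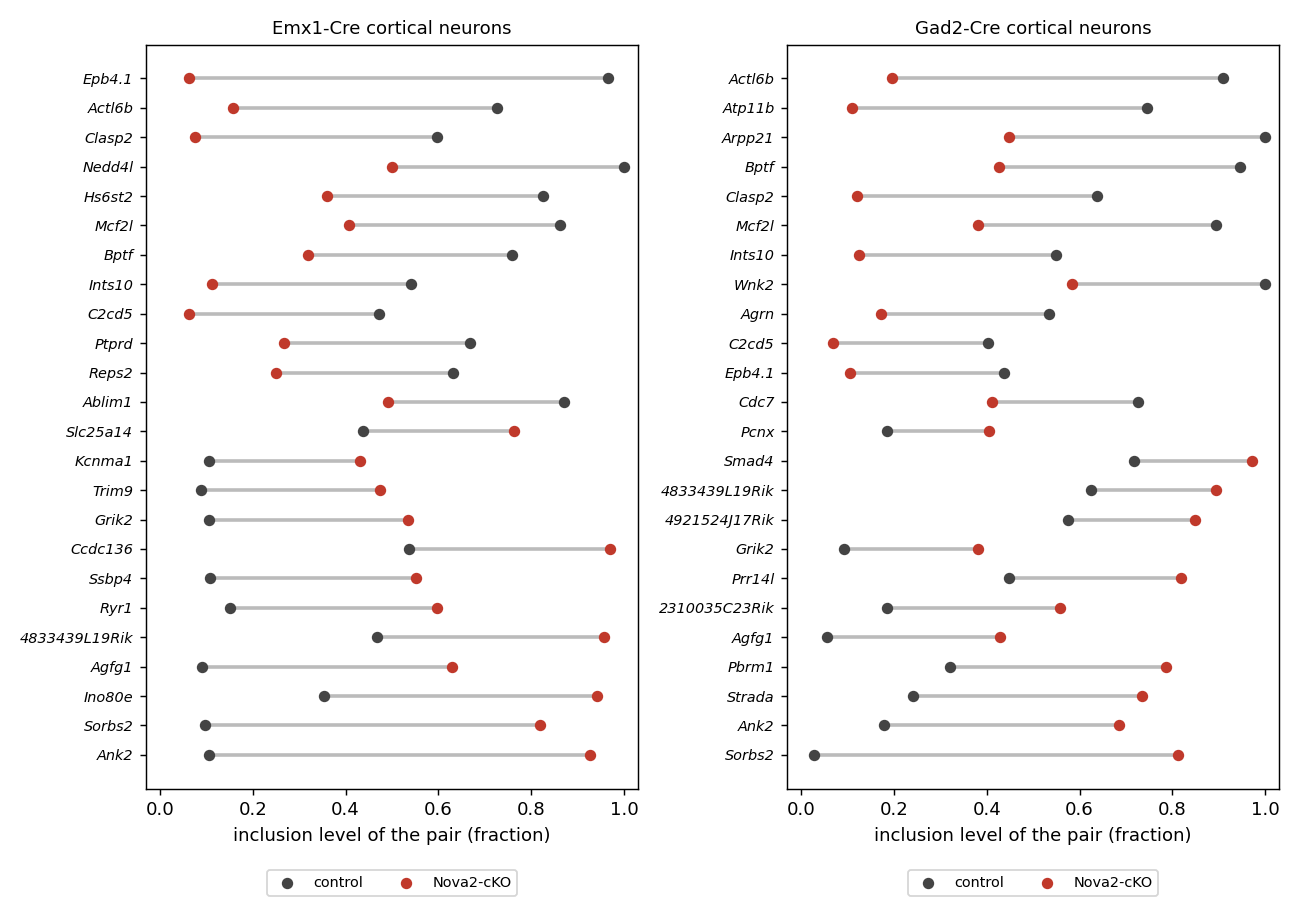
Inclusion level (fraction, x axis) of tandem pairs whose exons follow each other in an annotated transcript, 1 event per gene, for the 12 largest decreases and the 12 largest increases in Emx1-Cre (left) and Gad2-Cre (right) neurons. Dark points are control and red points Nova2-cKO levels, each 1 pooled value. Epb4.1 goes from 0.966 to 0.0617 at the top left and Ank2 from 0.105 to 0.926 at the bottom left.

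Most listed tandem events joined exons that are not neighbours in any annotated transcript. The exons were compared by their 2 ends with the GENCODE M21 annotation. Among Emx1-Cre events 160 of 710 events (22.5%) had annotated exons that are neighbours in at least 1 transcript, 58 had annotated exons that are never neighbours, 419 (59.0%) had some annotated and some unannotated exons, and 73 had none annotated. The share with some annotated exons was 59.9% in the Gad2-Cre table, 60% in the Purkinje table and 61.5% in the table of controls. Among the 1517 distinct exons of all events, 725 (47.8%) were annotated, 313 (20.6%) shared 1 splice site with an annotated exon, 92 (6.06%) only overlapped one and 387 (25.5%) overlapped none. This division was made after the values had been seen. Whether the unannotated exons are true exons of these cells or products of how isoforms were built was not tested.

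**Figure D2:**
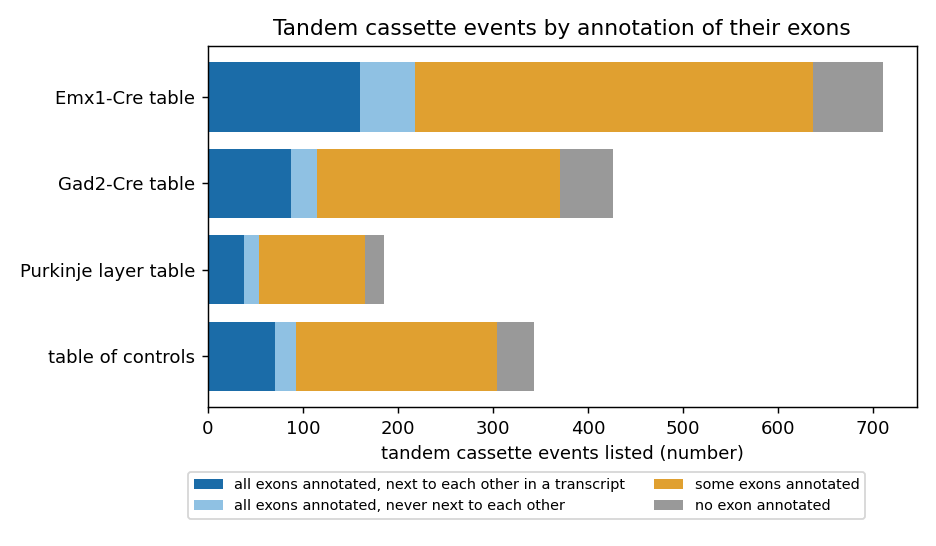
Number of listed tandem cassette events (x axis) in each table, stacked by how their exons match the gene annotation. Events with some annotated exons make up the longest section in every table, 419 of 710 in the Emx1-Cre table, and those of exons that are neighbours in a transcript number 160 there.

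Where only 1 exon of a pair was annotated, that exon was usually listed as a single cassette in its own right. This held for 320 of 419 such pairs (76.4%) of the Emx1-Cre list, 194 of 255 (76.1%) of the Gad2-Cre list, 78 of 111 (70.3%) in the Purkinje table and 130 of 210 (61.9%) in the table of controls. The unannotated partner was listed by itself in 38, 24, 12 and 29 of these pairs. Some of the largest responses are of this kind, so the sequences of 4 annotated exons are given, in the same manner as above.
Nrcam annotated exon, chr12:44545379-44545435, plus strand: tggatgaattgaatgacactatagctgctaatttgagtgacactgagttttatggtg
Clstn1 annotated exon, chr4:149641658-149641714, plus strand: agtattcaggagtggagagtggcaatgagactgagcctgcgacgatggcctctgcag
Myo9a annotated exon, chr9:59912537-59912590, plus strand: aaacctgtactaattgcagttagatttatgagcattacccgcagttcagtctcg
Dab1 annotated exon, chr4:104713622-104713672, plus strand: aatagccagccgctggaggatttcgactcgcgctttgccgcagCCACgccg
Nrcam, an adhesion molecule of the L1 family, had 0.963 in Emx1-Cre control and 0.0752 in cKO neurons for its 57-nt exon with an unannotated exon of 75 nt, while the 57-nt exon alone fell from 0.986 to 0.185. In Gad2-Cre neurons the pair fell from 1 to 0.442. Clstn1, which encodes calsyntenin, a synaptic cadherin-like protein, fell at a 57-nt exon with an unannotated 72-nt exon from 0.957 to 0.134 in Emx1-Cre and from 0.981 to 0.384 in Gad2-Cre neurons. Its 57-nt exon alone fell from 0.986 to 0.323 in Emx1-Cre neurons. Myo9a, a myosin with a GTPase-activating domain, fell at a 54-nt exon with an unannotated 46-nt exon from 0.793 to 0.073 and from 1 to 0.171, and its 54-nt exon alone fell from 0.923 to 0.236 in Emx1-Cre neurons. In these genes the single cassette of the annotated exon had a higher level in cKO neurons than the pair. With an unannotated 107-nt exon in place of the 72-nt one, the Clstn1 pair had the same levels and coverage in both cortical tables. How far a pair's level reflects reads of its unannotated exon was not tested, so no choice between isoforms is read from this.

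Dab1, the adaptor through which reelin steers migrating neurons, moved the other way. A 51-nt exon and an exon of 48 nt that shares a splice site with an annotated exon lie 91 nt apart. Their joint level was 0.00769 in Emx1-Cre control and 0.822 in cKO neurons, and the 51-nt exon alone rose from 0.0115 to 0.694. No tandem event of Dab1 was listed in the Gad2-Cre table. Of these 4 printed exons, that of Dab1 held 1 match to the motif and the other exons none.

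Among other genes with a large response at a pair with 1 annotated exon, Neo1, a receptor for netrin and repulsive guidance molecules, rose from 0.267 to 0.977 in Emx1-Cre neurons at a 159-nt exon with an unannotated 240-nt exon. Slc8a1, the sodium-calcium exchanger, rose from 0.0693 to 0.652 at exons of 104 nt and 21 nt (coverage 450), of which the 21-nt exon is annotated. Sorbs2, described above for an increase, also fell from 0.875 to 0.0559 at a 1581-nt coding exon with an unannotated 62-nt exon. The gene therefore had tandem events in both directions in Emx1-Cre neurons. Arpp21, a cyclic AMP-regulated phosphoprotein, rose from 0.210 to 0.892 at exons of 60 nt and 227 nt in Emx1-Cre neurons. A different pair of it, of 109 nt and 91 nt, fell from 1 to 0.425 in Gad2-Cre neurons.

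Beyond the printed pairs, adjacent annotated exons changed in genes of chromatin, signalling and the cytoskeleton. Actl6b, the neuronal subunit of the BAF chromatin remodeller, fell at its 77-nt and 166-nt exons from 0.726 to 0.157 in Emx1-Cre and from 0.909 to 0.195 in Gad2-Cre neurons. Bptf, a subunit of the NURF remodeller, fell at exons of 189 nt and 186 nt from 0.758 to 0.319 and from 0.946 to 0.427. Mcf2l, a guanine nucleotide exchange factor of small GTPases, fell at exons of 93 nt and 75 nt from 0.863 to 0.406 and from 0.894 to 0.382. In Gad2-Cre controls all 3 pairs were at 0.894 or more. C2cd5, a C2-domain protein of vesicle traffic, fell at exons of 51 nt and 102 nt from 0.473 to 0.0634 and from 0.403 to 0.0678. Map2, the dendritic microtubule-associated protein, fell at exons of 207 nt and 135 nt from 0.787 to 0.434 and from 0.804 to 0.504. The coverages were 100 and 80.2. Another listed Map2 event with exons of these lengths had much lower control levels at deeper coverage. It fell from 0.298 to 0.0675 in Emx1-Cre (coverage 763) and from 0.273 to 0.098 in Gad2-Cre neurons (coverage 724). Ptk2, the focal adhesion kinase, fell at exons of 104 nt and 122 nt from 0.528 to 0.193 and from 0.519 to 0.247. Both of these Ptk2 exons are untranslated in the annotation.

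Increases at adjacent exons listed in Emx1-Cre neurons included the ryanodine receptor gene Ryr1, at exons of 27 nt and 30 nt from 0.150 to 0.597, and Trim9, a ubiquitin ligase of axon branching, from 0.0893 to 0.474. Kcnma1, the BK potassium channel, rose at exons of 9 nt and 174 nt from 0.106 to 0.431. The increase of Ssbp4, at 54 nt and 60 nt, was from 0.109 to 0.551. Each started below 0.2 in control neurons. Coverage was low for Ryr1 (26), Trim9 (22) and Kcnma1 (26.6).

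A pair and its exons moved in the same direction with few exceptions. Over all tables an exon of a tandem event was listed as a single cassette 1470 times, and in 1448 of them the single exon and the tandem event changed in the same direction. An exon was matched to the single cassette with the same ends, and to the one with the largest difference where it had several flanks. This choice was made in each table, so the cassette that stands for an exon can differ between tables. Tandem and single events of an exon share reads, so this is no independent support. Of 147 adjacent 2-exon pairs in Emx1-Cre neurons, 36 had both exons listed singly, 78 had 1 and 33 had neither. The numbers were 21, 43 and 16 of 80 in Gad2-Cre neurons, 8, 21 and 7 of 36 in the Purkinje table and 12, 36 and 16 of 64 in the table of controls.

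The 22 opposite cases were 13 in Emx1-Cre neurons, 7 in Gad2-Cre neurons, 2 between controls and 0 in the Purkinje layer. Grik2, which encodes the GluK2 subunit of kainate-type glutamate receptors, was opposite in both cortical tables. In Emx1-Cre neurons the level with both its 87-nt and 139-nt exons rose from 0.106 to 0.534 and the 139-nt exon alone rose from 0.136 to 0.765, while the 87-nt exon alone fell from 0.385 to 0.0482. In Gad2-Cre neurons the pair rose from 0.0933 to 0.381, the 139-nt exon from 0.0842 to 0.605, and the 87-nt exon fell from 0.687 to 0.101. A mutually exclusive event between the same flanking exons gave the isoform with the 87-nt exon at 0.501 in control and 0.0263 in cKO Emx1-Cre neurons, and at 0.590 and 0.0596 in Gad2-Cre neurons. The cKO neurons of both lines thus had less of the isoform with the 87-nt exon by itself and more of those with the 139-nt exon. The 139-nt exon held 10 matches to the YCAY motif, a number reached by 0.103% of annotated internal exons of that length, and its stretch of 30 bases with the most matches, at bases 74 to 103 of the exon, held 7.
Grik2 stretch of the 139-nt exon, chr10:49103546-49103575, minus strand: tgttgTCATCATCACCATctTCATCATCAT
The 87-nt exon held 3 matches, reached by 17.6% of exons of its length.

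Atp11b, a phospholipid-transporting ATPase, had the most divided response. With both its 86-nt and 126-nt exons the level fell from 0.428 to 0.0783 in Emx1-Cre neurons. The 126-nt exon alone fell from 0.960 to 0.114 while the 86-nt exon alone rose from 0.118 to 0.788. In Gad2-Cre neurons the pair fell from 0.745 to 0.109 and the single exons both fell, the 86-nt one from 0.364 to 0.153 and the 126-nt one from 0.838 to 0.135. Mutually exclusive events named the 86-nt exon at levels of 0.0649 in control and 0.857 in cKO Emx1-Cre neurons and of 0.0994 and 0.537 in Gad2-Cre neurons. The downstream exon, which is in no annotated protein-coding transcript, was the one whose level fell in cKO neurons of both lines.

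Ptprd, Ints10 and Pbrm1 were opposite in 1 cortical table each. The exons of Ptprd and Pbrm1 are printed because the single cassettes taken for them split in direction.
Ptprd upstream exon, chr4:76139294-76139302, minus strand: aatctattg
Ptprd downstream exon, chr4:76138556-76138573, minus strand: gtggtacaccaataagag
Pbrm1 upstream exon, chr14:31110415-31110579, plus strand: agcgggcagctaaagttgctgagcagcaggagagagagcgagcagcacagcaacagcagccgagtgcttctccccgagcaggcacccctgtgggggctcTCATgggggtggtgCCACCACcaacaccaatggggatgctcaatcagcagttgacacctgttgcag
Pbrm1 downstream exon, chr14:31113849-31114004, plus strand: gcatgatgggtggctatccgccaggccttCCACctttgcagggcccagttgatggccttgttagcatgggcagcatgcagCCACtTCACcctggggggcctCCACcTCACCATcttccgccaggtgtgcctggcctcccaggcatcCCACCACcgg
Ptprd is a presynaptic receptor tyrosine phosphatase whose very short exons are known to set its partners. In Emx1-Cre neurons its 9-nt and 18-nt exons together fell from 0.668 to 0.267. The single cassette taken for the 18-nt exon fell from 0.693 to 0.20, while that taken for the 9-nt exon rose from 0.52 to 0.836. The cassette taken for the 9-nt exon in the table of controls had 0.418 in the same Emx1-Cre controls. The level of this exon thus depends on the cassette, and its rise holds for the 1 taken here. Ints10, a subunit of the Integrator complex, fell from 0.541 to 0.111 with both of its 78-nt exons, and its downstream exon fell from 0.661 to 0.129 while the upstream one rose from 0.280 to 0.462. In Gad2-Cre neurons the Ints10 pair fell from 0.549 to 0.125 and both exons fell as single cassettes. A mutually exclusive event that named the upstream exon rose in both lines, from 0.178 to 0.473 in Emx1-Cre and from 0.121 to 0.293 in Gad2-Cre neurons. The exon that moved against the pair in Ptprd and Ints10 was the upstream one, as in 14 of the 22 cases. It was the downstream one in the other 8, which came from 2 genes. Npy1r, a receptor for neuropeptide Y, gave 6 overlapping cases in Emx1-Cre neurons, among them its adjacent 74-nt and 149-nt exons, whose joint level fell from 0.772 to 0.441 (coverage 33) while the 149-nt exon alone rose from 0.286 to 0.667. Oprl1, the nociceptin receptor, gave 2 in Gad2-Cre neurons, with the level of its 34-nt and 98-nt exons falling from 0.461 to 0.170 and the 98-nt exon alone rising from 0.333 to 0.716.

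Pbrm1, the polybromo subunit of the PBAF chromatin remodeller, rose in Gad2-Cre neurons from 0.321 to 0.787 with both its 165-nt and 156-nt exons. The 156-nt exon alone rose from 0.270 to 0.829 and the 165-nt exon alone fell from 0.745 to 0.415. The 156-nt exon held 8 matches to the motif, reached by 1.51% of annotated exons of its length, and the 165-nt exon 3, reached by 56.5%. In Emx1-Cre neurons the pair rose from 0.426 to 0.693. Both exons rose there as single cassettes, the 165-nt one from 0.289 to 0.464 and the 156-nt one from 0.428 to 0.743. The cassettes taken for an exon may have other flanks in each line. Mutually exclusive events that named an exon of an adjacent pair were listed for 8 of 147 pairs in Emx1-Cre and 8 of 80 in Gad2-Cre neurons, each in 7 genes.

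**Figure D3:**
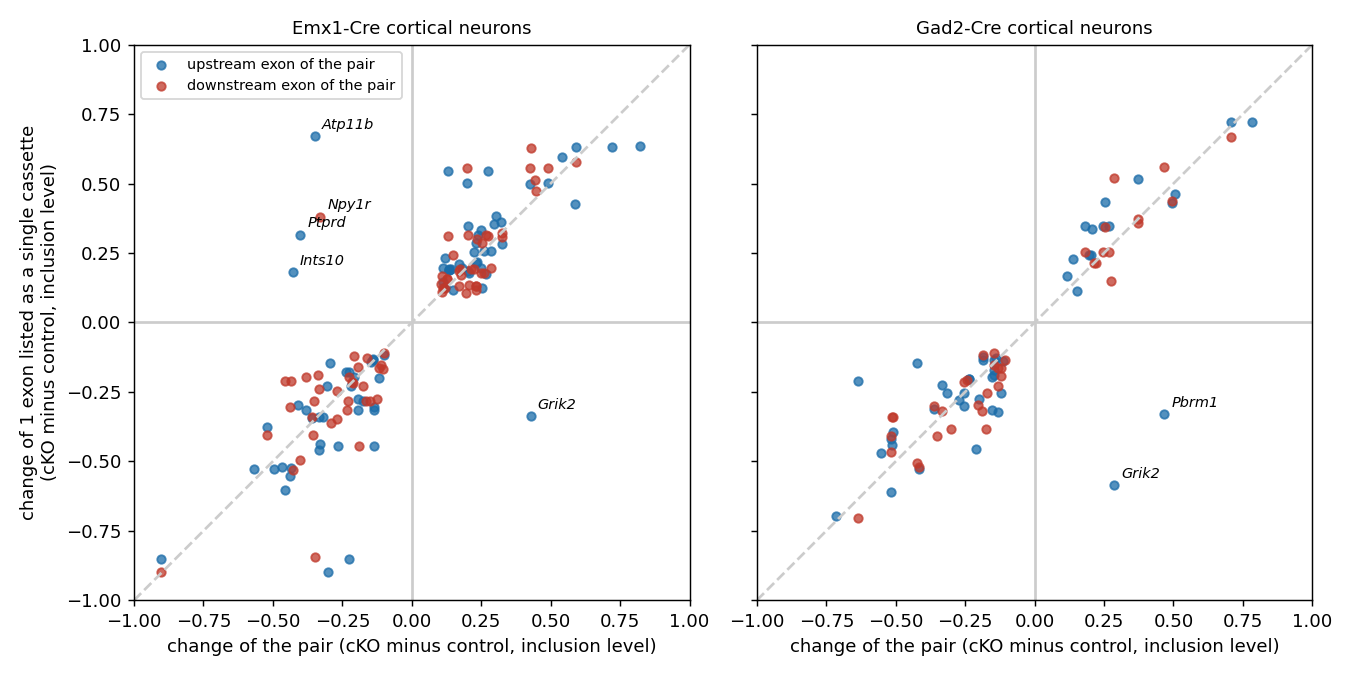
Change of an exon listed as a single cassette (y axis) against the change of the adjacent 2-exon pair it belongs to (x axis), both as cKO minus control inclusion level, in Emx1-Cre (left) and Gad2-Cre (right) neurons. Blue points are upstream and red points downstream exons, and the dashed line marks equal change. Nearly all points lie at lower left or upper right, where pair and exon change alike, and the named genes, among them Grik2 and Atp11b, lie outside.

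The same tandem event was often listed in both cortical tables. There were 183 shared events in 79 genes, which made up 25.8% of the first list (Emx1-Cre) and 43.0% of the second (Gad2-Cre). The 2 tables have no samples in common. Of the shared events 121 were lower in cKO in both lines and 53 were higher in both. The median size of the difference was 0.268 in Emx1-Cre and 0.263 in Gad2-Cre neurons, and 85 of the 183 differed more in Emx1-Cre neurons. Since both lists hold only events past the thresholds, an event missing from a table was not shown to differ between the lines.

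**Figure D4:**
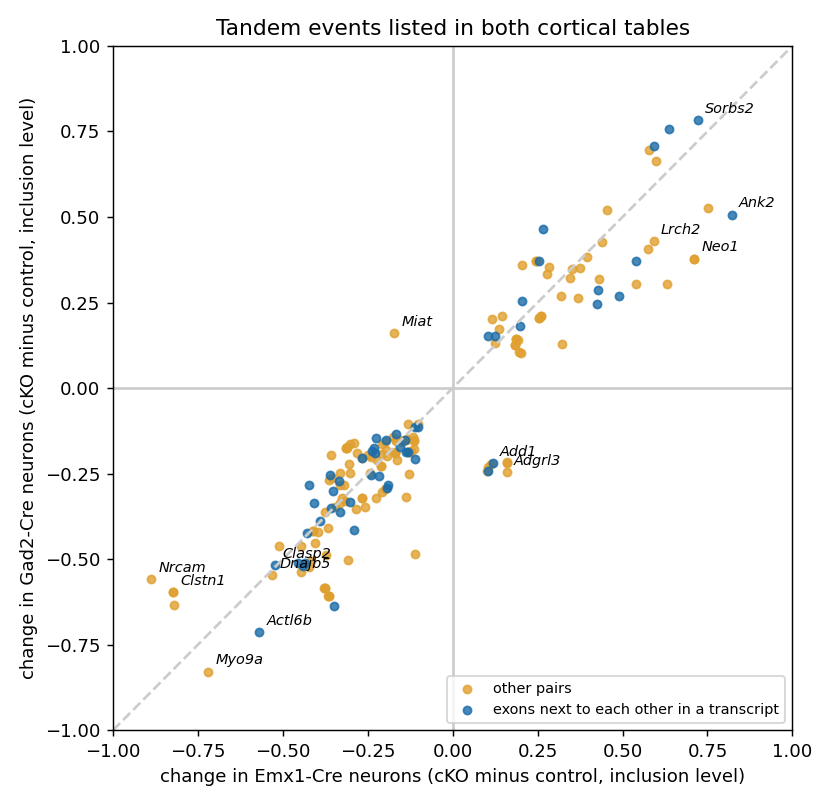
Change in Gad2-Cre neurons (y axis) against change in Emx1-Cre neurons (x axis), both as cKO minus control inclusion level, for the 183 tandem events listed in both cortical tables. Blue points are pairs of exons that are neighbours in an annotated transcript and orange points the others, and the dashed line marks equal change. Most points lie near that line, and Add1, Adgrl3 and Miat lie where the changes are opposite.

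The 9 events of opposite direction were in 3 genes: 7 in Adgrl3, 1 in Add1 and 1 in Miat. Add1 encodes alpha-adducin, which caps actin filaments and joins them to spectrin. Its 37-nt and 50-nt exons rose from 0.610 to 0.728 in Emx1-Cre and fell from 0.979 to 0.760 in Gad2-Cre neurons. Adgrl3 encodes latrophilin-3, an adhesion receptor of synapses, and its 129-nt and 52-nt exons rose from 0.352 to 0.456 and fell from 0.623 to 0.381. The long noncoding RNA Miat fell from 0.664 to 0.493 in Emx1-Cre neurons and rose from 0.386 to 0.547 in Gad2-Cre neurons at exons of 124 nt and 106 nt. In each of them the control levels of the lines lay further apart than their cKO levels, and each event was also in the table of controls. Whether the changes differ beyond the spread between samples was not tested. With an FDR of at most 0.01 in both lines, 132 of 132 shared events had the same direction, and with differences of at least 0.2 it was 107 of 107. The opposite events of these 3 genes are thus absent under either threshold. With a coverage of at least 50 it was 121 of 122, and the Miat event (coverages 104 and 101) remained opposite.

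There were 30 events in 17 genes that were listed in both cortical tables and in the table of controls, which shares its samples with them, so their 4 levels are given side by side. Atp11b had 0.428 in Emx1-Cre and 0.745 in Gad2-Cre controls, and 0.0783 and 0.109 in the cKO neurons. For Kif2a, a microtubule-depolymerising kinesin, exons of 75 nt and 114 nt had 0.625 and 0.814 in the controls and 0.201 and 0.289 in the cKO neurons. St7 had 0.459 and 0.664 against 0.150 and 0.162 at exons of 84 nt and 69 nt. The collagen receptor gene Ddr1 had 0.223 and 0.571 against 0.113 and 0.0855. Tropomyosin gene Tpm1 was higher in Emx1-Cre controls, at 0.358 and 0.167, with 0.563 and 0.527 in the cKO neurons. The gap between the lines was smaller in cKO than in control neurons at all 30 events, but hardly so in 2 genes. Erc2 kept a gap of 0.191 in cKO against 0.194 in control neurons at exons of 113 nt and 24 nt, and Pdzd4 one of 0.165 against 0.180 at exons of 236 nt and 91 nt. Events had to pass a threshold on the difference of the controls to be among these 30, and no such threshold applied to the cKO levels, so closer cKO levels are in part built into the choice.

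In the Purkinje layer the labels do not say which group is first in the table, so levels are given for group 1 and group 2 without naming the knockout. Of 62 genes, 21 or 33.9% (22.3% to 47.0%) were lower in group 2, where single cassettes gave 30.1%. The exons of Adgrl2 are printed as the largest adjacent pair that was lower in group 2.
Adgrl2 upstream exon, chr3:148821280-148821408, minus strand: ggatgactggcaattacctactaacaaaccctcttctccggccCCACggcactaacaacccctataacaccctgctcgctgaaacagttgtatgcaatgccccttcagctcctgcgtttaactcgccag
Adgrl2 downstream exon, chr3:148820417-148820468, minus strand: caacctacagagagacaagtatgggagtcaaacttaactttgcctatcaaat
Adgrl2, latrophilin-2, had 0.606 in group 1 and 0.173 in group 2 at these exons of 129 nt and 52 nt (coverage 21). The pair of Adgrl3 described above has the same exon lengths, and it was not listed in the Purkinje table. Epha5, an ephrin receptor of axon guidance, had 0.636 and 0.0164 at a 66-nt exon with an unannotated 45-nt exon (coverage 21). In Emx1-Cre neurons the same exons of Epha5 had 0.165 in control and 0.036 in cKO.

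Other genes had the higher level in group 2. Arhgap26, a GTPase-activating protein, had 0.0399 and 0.662 at exons of 111 nt and 30 nt. Syt7, the calcium sensor synaptotagmin-7, had 0.177 and 0.704 at exons of 369 nt and 123 nt. These had coverages of 158 and 319. Gphn, the scaffold gephyrin of inhibitory synapses, had 0.122 and 0.676 at a 42-nt exon with an unannotated 207-nt exon (coverage 29).

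Several pairs with large cortical changes were also listed in the Purkinje table, at smaller differences. The Ank2 pair of 183 nt and 92 nt had 0.493 in group 1 and 0.709 in group 2. Agfg1 had 0.105 and 0.427 and Nrcam 0.792 and 0.609. The 27-nt pair of Clasp2 was not listed there, but another of its pairs, of 24 nt and 18 nt, had 0.834 and 0.720. The Syt7 pair of 132 nt and 228 nt had 0.123 and 0.371. In cKO neurons it fell from 0.416 to 0.225 (Emx1-Cre) and from 0.591 to 0.308 (Gad2-Cre). Signs (second minus first group) were opposite in 3 of 41 events shared with Emx1-Cre and 1 of 38 shared with Gad2-Cre neurons, all in Syt7. Of 16 Syt7 events in the Purkinje table, 3 were lower in group 2. Clasp2 and Erc2, which encodes a scaffold of the presynaptic active zone, were the only 2 genes with a tandem event in every table, while 37 genes had one in 3 tables, 106 in 2 and 283 in 1.

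Control neurons of the lines differed at 343 tandem events in 143 genes. Of these genes 47 or 32.9% (25.2% to 41.2%) were lower in Gad2-Cre than in Emx1-Cre controls, where single cassettes gave 38.4%. Ptprd had 0.668 in Emx1-Cre and 0.129 in Gad2-Cre controls at its 9-nt and 18-nt exons, and Rims1, an active-zone scaffold, had 0.438 and 0.0476 at a 69-nt exon with an unannotated 69-nt exon (coverage 23). Higher levels in Gad2-Cre controls were found in Exoc7, a subunit of the exocyst, at 0.229 and 0.874, and in Pam, the enzyme that amidates neuropeptides, at 0.360 and 0.888. Csmd3 had 0.426 and 1 at exons of 114 nt and 96 nt, at a coverage of 20. In Gad2-Cre cKO neurons Exoc7 fell from 0.874 to 0.255 at the same exons of 130 nt and 69 nt. Both Exoc7 comparisons use the same Gad2-Cre control level, so they are not independent. Their coverages were 31.6 between controls and 41.9 in the Gad2-Cre table. Ptprd's 9-nt and 18-nt pair was not listed in the Gad2-Cre table.

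**Figure D5:**
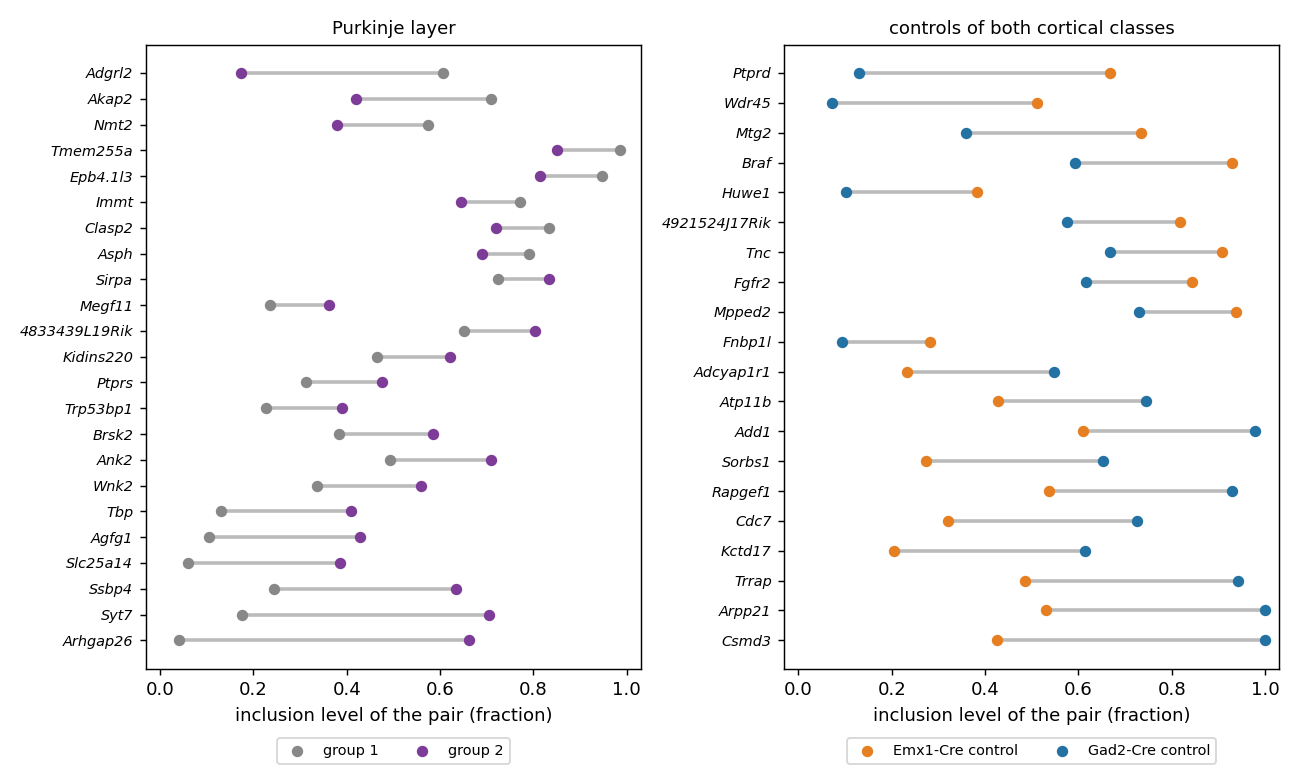
Inclusion level (fraction, x axis) of adjacent tandem pairs, 1 event per gene, for genes of the Purkinje layer table (left, grey group 1 and violet group 2) and the 10 largest differences each way between control neurons (right, orange Emx1-Cre and blue Gad2-Cre). Points are pooled values. Syt7 goes from 0.177 to 0.704 on the left and Ptprd from 0.668 to 0.129 on the right.

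Genes were also grouped by function. The groups are small and were not tested, and their counts are to be read against all genes with a tandem event, of which 54.6% of 240 were lower in Emx1-Cre cKO neurons (median change -0.116) and 66.9% of 169 in Gad2-Cre cKO neurons (median change -0.168). Of 47 listed genes of cell adhesion, 11 had a tandem event in Emx1-Cre neurons, with 6 lower and 5 higher in cKO (median change -0.122), and 7 in Gad2-Cre neurons, with 6 lower and 1 higher (median -0.290). The increase in both tables was in Cadm1, a synaptic immunoglobulin-type adhesion molecule, at exons of 158 nt and 84 nt, from 0.070 to 0.501 in Emx1-Cre and from 0.0787 to 0.398 in Gad2-Cre neurons. Of 43 genes of microtubules and motors, 5 were in each cortical table. Of those in Emx1-Cre neurons 4 were lower, Clasp2, Kif2a, Map2 and Clip1, and Clasp1 was higher, at 0.464 and 0.599 (median change -0.353, against -0.116 over all genes). In the Gad2-Cre table all 5 were lower, Clasp1, Clasp2, Kif2a, Map2 and Tbce (median -0.353, against -0.168), where 66.9% of all genes were lower. Of 40 genes of chromatin and transcription, 4 fell in each table and 0 rose, with Actl6b, Bptf and Kdm1a in both (medians -0.295 and -0.418, against -0.116 and -0.168 over all genes, of which 54.6% and 66.9% were lower).

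Presynaptic and trafficking genes were lower in 5 of 6 listed genes in Emx1-Cre neurons (median -0.212, against -0.116 over all genes) and in 4 of 5 in Gad2-Cre neurons (median -0.283, against -0.168), where 54.6% and 66.9% of all genes were lower. Erc2 fell at exons of 113 nt and 24 nt from 0.428 to 0.083 and from 0.622 to 0.274, and Clta, clathrin light chain A, fell at its 54-nt and 36-nt exons from 0.592 to 0.460 and from 0.701 to 0.514. Rims1 was the one that rose, from 0.417 to 0.786 and from 0.486 to 0.749. In the table of controls 6 of 7 such genes were higher in Gad2-Cre neurons (median 0.204, against 0.165 over all 143 genes, of which 32.9% were lower). Among synaptic scaffolds and receptors 4 of 5 genes were higher in Emx1-Cre cKO (median 0.162, against -0.116 over all genes) and 3 of 3 in Gad2-Cre cKO neurons (median 0.269, against -0.168). In the Purkinje layer 2 genes of this list were lower and 2 higher in group 2. Grik2 and the scaffold gene Magi1 were in both, the latter at 0.552 and 0.871 and at 0.553 and 0.822.

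Other lists were mixed. Membrane skeleton genes had 2 lower and 3 higher in Emx1-Cre and 3 of each in Gad2-Cre neurons, actin and myosin genes 6 lower and 3 higher and 3 of each, and ion channels and pumps 2 lower and 3 higher and 1 lower. Among small GTPase regulators 4 were lower in Gad2-Cre neurons, Madd, Arhgef7, Sipa1l1 and Itsn1, while Rapgef1 and Arhgef11 were higher in Emx1-Cre neurons, Rapgef1 at 0.559 against 0.308 in controls. Genes of axon guidance had 2 lower and 2 higher in Emx1-Cre neurons and 1 higher in Gad2-Cre neurons. RNA-binding genes had 3 lower and 1 higher and 1 lower, with Celf2 falling in both, from 0.697 to 0.567 and from 0.853 to 0.603. Of 35 genes known as NOVA targets, 14 were listed for Emx1-Cre neurons, 6 lower and 8 higher (median change 0.130, against -0.116 over all genes). In Gad2-Cre neurons 8 were listed, 4 in each direction (median -0.079, against -0.168). The tables hold only events past the thresholds, so the share of all expressed genes with a tandem event is unknown. No enrichment is therefore read from the number of genes listed, for this or the other lists. In the list of markers of other cell types, 0 genes had a tandem event in any table, which says nothing of their levels.

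Whole blocks of adjacent coding exons often kept the reading frame. The summed length of the exons was divisible by 3 in 68.3% of 101 genes with an adjacent pair in Emx1-Cre neurons (58.3% to 77.2%), 64.4% of 59 in Gad2-Cre neurons, 66.7% of 24 in the Purkinje table and 62% of 50 in the table of controls. In pairs with some annotated exons the share was 43.2%, 37.2%, 36.5% and 41.7%. Single cassettes had 60.4%, 57.9%, 61.5% and 55.9%, and the first of these lies within the interval of the adjacent pairs. In the Emx1-Cre table each exon was itself divisible by 3 in 48 of the 101 genes, as in Clasp2 and Agrn, and only the sum was in 21, as in Actl6b with 77 nt and 166 nt. Every exon of the pair overlapped coding sequence in 75 of the 101 genes, some exons did in 15, 8 had only untranslated exons and 3 no protein-coding transcript. Among those 75 genes the block was divisible by 3 in 73.3%.

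The exons of adjacent pairs lay close together. The median distance between them was 1174 nt in the Emx1-Cre, 1062 nt in the Gad2-Cre, 1123 nt in the Purkinje table and 1043 nt in the table of controls, and the median summed length was 210 nt, 212 nt, 190 nt and 216 nt. Distances in the Emx1-Cre table ran from 82 nt to 42629 nt. Blocks of 4 exons were rare, with 3 events in the Emx1-Cre table. The longest was in Ptprs, a receptor tyrosine phosphatase of the Ptprd family, with exons of 306, 194, 118 and 600 nt, which rose from 0.340 to 0.573 in Emx1-Cre neurons (coverage 785). In the Purkinje table it had 0.313 and 0.475.

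A few genes held many overlapping events. Anks1b, which encodes a postsynaptic ankyrin-repeat protein, had 31 distinct events, of which 29 were in the Emx1-Cre table and all higher in cKO, built from 17 distinct exons of which 4 are annotated. Immt, which encodes a mitochondrial inner membrane organiser, had 24 events that were lower in Gad2-Cre cKO neurons and also lower in group 2 of the Purkinje layer. Kctd17 had 21 events, all higher in Emx1-Cre cKO neurons. Counted by genes, each of these is a single entry.

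In the exons of adjacent pairs of the cortical tables the YCAY motif was about as dense as in exons at large. Pooled over genes, exons that fell had 1.77 matches per 100 nt and exons that rose 1.80 in Emx1-Cre neurons, 1.58 and 1.80 in Gad2-Cre neurons. All 180116 annotated internal exons of protein-coding transcripts had 1.78. In the Purkinje table the density of adjacent pairs was 1.74 for 8 genes lower in group 2 and 2.37 for 16 genes higher in it. With all adjacent events counted these were 1.70 and 2.01. In the table of controls the density was 2.02 for 16 genes lower in Gad2-Cre controls and 1.69 for 34 higher. The introns beside the exons, where binding is known to matter most, were not used here.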

How the data were processed

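The members and gene lists were chosen with earlier results of these data known. Per the labels, splicing was measured by the authors with Quantas, mapped to mm10. The submitters' processing notes also name kallisto and edgeR, with no role. No aligner, version, trimming or strand setting was found in the labels. The deposited tables hold, per the file headers, a fraction from 0 to 1 as inclusion level of each group, the difference of both (a signed score, group 1 minus group 2), a p-value with its FDR, and a coverage signal that the headers do not define. In the listed events the authors' FDR did not pass 0.05, the difference was at least 0.1 in size and the coverage at least 20. Levels pool the 3 samples of a group, so no test across samples was possible. Nothing in the labels ties samples to separate animals, and the spread behind the FDR could be technical. Levels with low coverage are less precise.

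Tandem events were read with Python 3.11.15, pandas 2.3.3 and SciPy 1.17.1, changes were turned to second minus first group, and exon positions came from the deposited interval lists of the same names. Annotation and exon sequences came from GENCODE M21. Genes were picked for naming from the 12 largest decreases and increases in each cortical table and the 6 largest in the others. Others came from genes in 3 or more tables or with opposite shared events, those with most events or exons, and the lists. Not every gene of these groups is named in the text. The split by annotation, the printed exons, further adjacent pairs and the genes with opposite single exons were chosen after their values were seen. Letters were printed only for exons that are coding over their whole length, apart from 1 stretch of 30 bases. The class assignment and motif count recovered 100% of 200 simulated cases each. Alternatives were stricter FDR, difference and coverage, other ways of choosing 1 event per gene and other ways of matching. A few items are not reported here.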

Additional observations from a re-analysis of the deposited data

Results flagged for a closer look

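The tandem events of 3 genes moved in opposite directions in the cortical lines, and the difference between the lines was not tested. None of these events is listed in both tables with an FDR of at most 0.01 or with differences of at least 0.2, where 132 of 132 and 107 of 107 shared events had the same direction. In Add1 the 37-nt and 50-nt exons changed by 0.118 in Emx1-Cre and by -0.218 in Gad2-Cre neurons (cKO minus control inclusion level). In Adgrl3 the event with the largest opposite changes, with exons of 129 nt and 18 nt, changed by 0.16 and by -0.246, at a coverage of 30 in Gad2-Cre neurons. In Miat the exons of 124 nt and 106 nt changed by -0.172 and by 0.161, at coverages of 104 and 101. This event remained with a coverage of at least 50, where 121 of 122 shared events had the same direction.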

How the results depend on the processing

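No paired analysis was possible because the tables hold 1 pooled level per group and no value per sample, and for the same reason no sample could be left out. Of 72 values under alternatives, 52 stayed within their interval or within 1.5 times the main value and 20 moved. With differences of at least 0.2 the Emx1-Cre, Gad2-Cre and Purkinje tables and the table of controls held 426, 238, 67 and 186 tandem events, and the cortical tables shared 107, with 107 in the same direction, so none of the opposite events remained. An FDR of at most 0.01 left 248, 123 and 216 events in the Gad2-Cre and Purkinje tables and the table of controls. It left 132 shared by the cortical tables, again with 132 in the same direction. A coverage of at least 50 left 122 shared events, with 121 in the same direction. Restriction to exons that are neighbours in a transcript, added after seeing the data, left 160, 87, 38 and 71 events, 51 shared by the cortical tables with 49 in the same direction, and 47.52% of Emx1-Cre genes lower in cKO. It raised the share of genes with a length divisible by 3 to 68.32%, 64.41%, 66.67% and 62%, and the cause was not tested. The motif in flanking introns, and with it the 100-nt window, was not run. Coverage of 20 to 30 limits the precision of, among others, Epb4.1, Sorbs2, Ryr1, Trim9, Kcnma1, Adgrl2, Epha5, Gphn, Rims1 (controls) and Csmd3.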
